A study of Mus musculus with 4 samples.

Results

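The genes of the Polycomb complexes were examined in round spermatids, haploid germ cells formed by meiosis, sorted from the testes of ICR mice. The set was chosen by name and holds 37 genes: the subunits of Polycomb repressive complexes 1 and 2 (PRC1 and PRC2), the H3K27 demethylases and the deubiquitinase that removes the PRC1 mark. All 37 were found among the 25965 genes of the deposited table, and GENCODE M21 annotates all 37 as protein-coding. RNA was measured with Smart-seq2 in 2 libraries of genotype Wfdc15a+/- (heterozygous, the controls) and 2 libraries of genotype Wfdc15a-/- (called knockout-labelled below). Every library therefore carries at least 1 altered allele of Wfdc15a, which encodes a small WAP-domain protein. The altered stretch of that gene, the number of mice and the gate of the sort are not stated in the labels, and wild-type cells, which the design text also mentions, were not analysed here.

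Polycomb proteins keep developmental genes silent. PRC2 methylates H3K27 through the catalytic subunits EZH1 or EZH2, held together by EED and SUZ12, and PRC1 ubiquitinates histone H2A through RING1 or RNF2 paired with a PCGF protein. Canonical PRC1 binds methylated H3K27 through a CBX protein, whereas variant PRC1 carries RYBP or YAF2 instead. KDM6 enzymes remove the methyl mark and the BAP1 complex removes ubiquitin from H2A. Male germ cells are known for promoters that carry Polycomb methylation together with H3K4 methylation through meiosis and into spermatids, the state called bivalent.

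Values are RPM, the reads of a gene scaled to a common library total, and levels of different genes are compared as RPM per kb of merged exon. The libraries held 5774112 and 33853604 reads (heterozygous 1 and 2) and 21160061 and 11268909 reads (knockout-labelled 1 and 2), a 5.86-fold range. Nothing in the labels says that replicates came from separate mice, so p-values reflect sample-to-sample spread that may be only technical. Wfdc15a itself was at 121 and 85.2 RPM (heterozygous) and at 82.6 and 59.5 RPM (knockout-labelled; limma adjusted p = 0.647), so its transcript does not check the labels. All 14 round spermatid markers were at 142 RPM or more in every library, with sums of 4708 and 5013 RPM in heterozygous against 5415 and 5176 RPM in knockout-labelled libraries (6 of 14 higher in both, 0 lower). Summed markers of several other cells also lay apart between the groups. Beside the counts of single markers, 23.5% of all tested genes lay higher in both knockout-labelled libraries and 15.0% lower in both. The 5 transition protein and protamine genes of elongating spermatids summed to 1998 and 3754 against 1478 and 1124 RPM (heterozygous against knockout-labelled, the order used throughout), and 5 of 5 lay lower in both. The 15 macrophage markers summed to 37.2 and 38.6 against 381.5 and 127.8 RPM (14 of 15 higher in both, with Tyrobp at 0 in both heterozygous libraries), and the 12 spermatogonial markers to 63.0 and 55.0 against 93.6 and 78.7 RPM (4 of 12 higher in both, 1 lower). The 8 Leydig markers summed to 6.58 and 3.19 against 38.1 and 19.3 RPM (5 of 8 higher in both, Hsd3b6 at 0 in both heterozygous libraries), the 10 Sertoli markers to 21.1 and 35.6 against 55.8 and 52.4 RPM (4 of 10 higher in both, Amh at 0 in every library), and the 12 spermatocyte markers to 893 to 1299 RPM with overlapping groups (2 higher, 1 lower in both). Peritubular and stromal markers summed to 145.3 and 36.0 against 136 and 121 RPM (3 of 8 higher in both), and blood and endothelial markers to 10.6 to 14.6 RPM (Hba-a1 at 0 in every library). The part of these cells in the differences below was not tested, and in such bulk samples fewer cells of a type and less RNA per cell cannot be told apart.

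The sorted libraries held transcripts of a nearly complete Polycomb machinery, and the part of other cells in these levels was not tested. In the EZH, RING1, CBX, PHC and ASXL families, 1 paralogue held 75.9% or more of the summed per-kb level in every library. The most abundant members per kb were Bap1, the H2A deubiquitinase, at a mean of 33.3 RPM per kb, Ezh2 at 29.1, Phc1, which encodes a PRC1 subunit that polymerises through its SAM domain, at 21.5, Bmi1, a PCGF protein of canonical PRC1, at 18.6, and Asxl1, the partner of BAP1, at 17.5. These levels were above those of 86.5%, 84.8%, 81.0%, 78.9% and 78.2% of the 14020 tested genes with a known exon length. The chromodomain genes Cbx2, Cbx6 and Cbx8 and the PRC2 accessory gene Phf19 lay at the other end, below 1 RPM in every library, and were not tested. The remaining 33 members passed the filter of 1 RPM in at least 2 libraries, on 8 to 5739 reads per library, and 17 of the 37 lay above the median per-kb level of tested genes. The order of the members depends on the length used. In RPM with no length correction, Ezh2 (means 197 heterozygous and 192 knockout-labelled) lay above Bap1 (177 and 134).

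**Figure D1:**
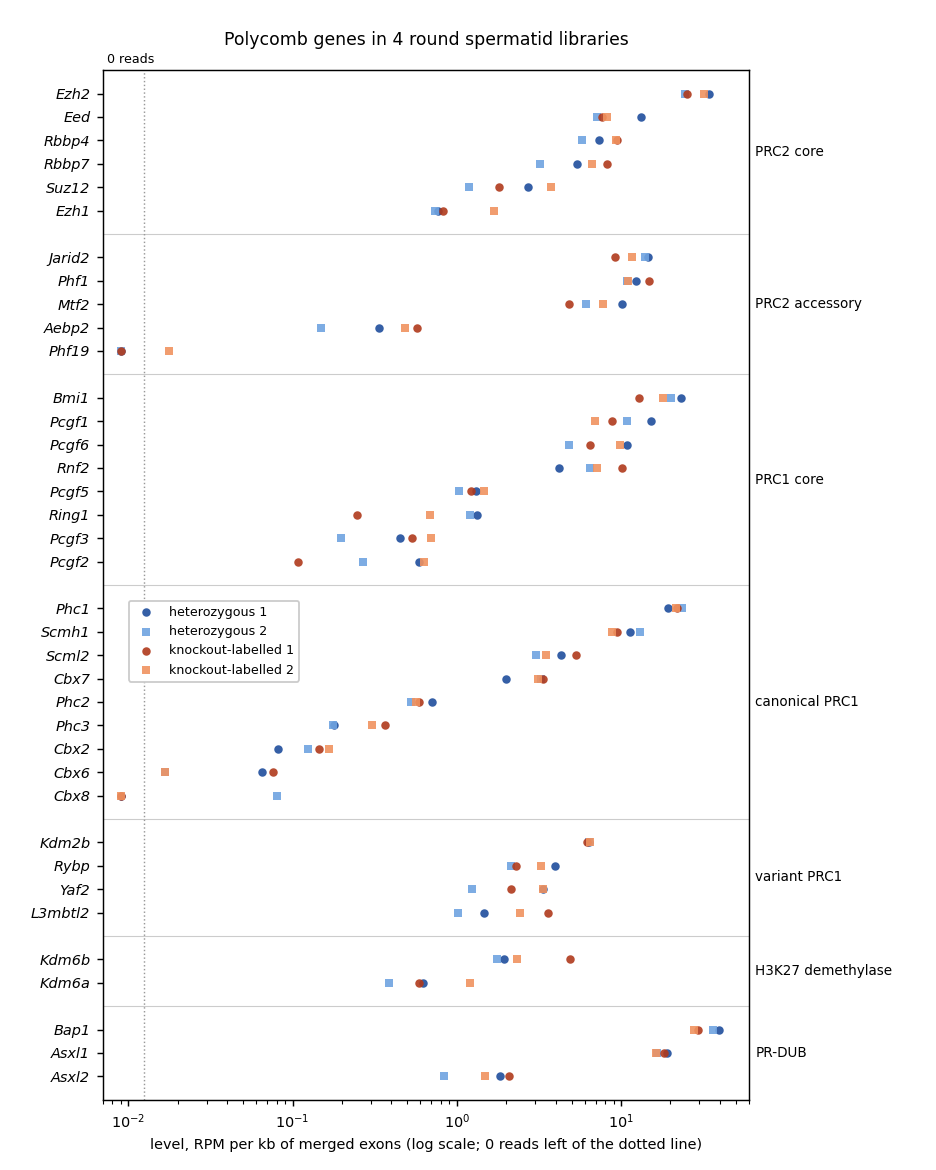
Level of each of the 37 genes in RPM per kb of merged exon (log axis) in the 4 libraries, grouped by role; symbols left of the dotted line mark 0 reads. Bap1 and Ezh2 hold the highest positions in each of the 4 libraries, and Phf19 and Cbx8 have reads in only 1 library each.

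The comparison between the groups asked whether spermatids labelled as lacking Wfdc15a differ in any Polycomb gene from heterozygous spermatids. No member passed limma at a Benjamini-Hochberg adjusted p of 0.05 (0 of 33, smallest adjusted p = 0.538), nor did any of all 15888 tested genes (0.00%). At an unadjusted p under 0.05 there was 1 member, L3mbtl2, on the higher side and 0 on the lower, beside 8.08% of all tested genes (6.21% higher and 1.87% lower). Median-ratio scaling and quantile normalization each gave 1 higher and 2 lower, beside 1283 and 1197 of all tested genes in either direction. Voom weights on the recovered reads also called 0 members. With voom, 7 were at an unadjusted p under 0.05 (6 higher, 1 lower), beside 1961 of all tested genes. The median log2 difference (knockout-labelled minus heterozygous) was 0.15 over the 33 members and 0.07 over all tested genes.

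Among the 33 tested members, both knockout-labelled libraries lay above both heterozygous ones for 9 and below both for 6; untested Cbx2 also lay above. The background is 23.5% above and 15.0% below among all tested genes, beside 27.3% and 18.2% of the tested members, so these counts are close to those of any genes. The 9 higher members were L3mbtl2, Rbbp7, Kdm6b, Rnf2, Aebp2, Rbbp4, Phc3, Pcgf3 and Ezh1, and the 6 lower ones were Ring1, Pcgf1, Jarid2, Bmi1, Bap1 and Scmh1. Of the higher 9, 6 (Aebp2, Pcgf3, Phc3, Ezh1, L3mbtl2 and Kdm6b) lay below the median per-kb level of tested genes, as did only Ring1 among the lower 6; this split was seen after the values were known and was not tested. With 2 libraries against 2, an exact two-sided permutation test of a single gene cannot go below p = 0.333.

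**Figure D2:**
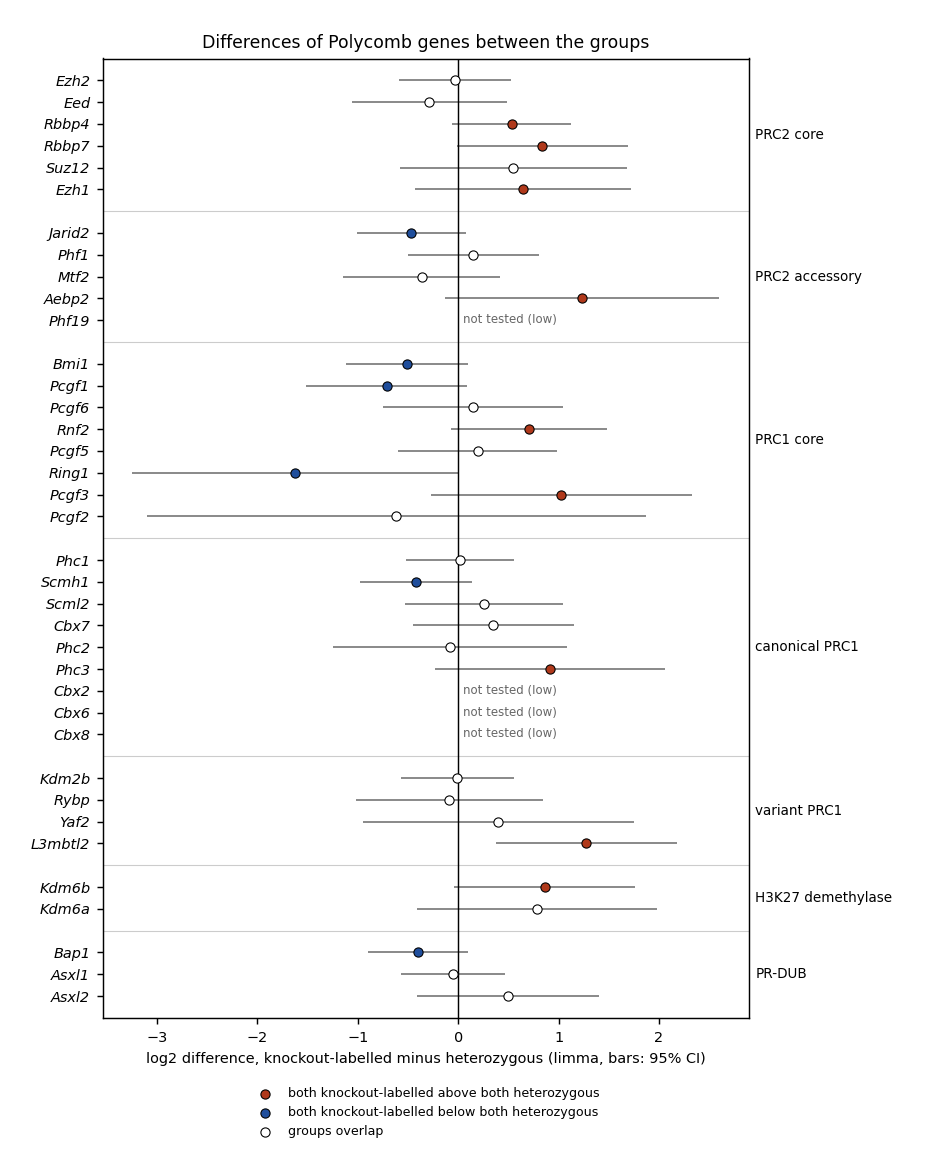
Log2 difference (knockout-labelled minus heterozygous) of the 33 tested genes with 95% confidence intervals from limma; filled points mark genes whose groups do not overlap. The interval of L3mbtl2 (0.37 to 2.18) lies above 0, and that of Ring1 ends at 0.

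**Figure D3:**
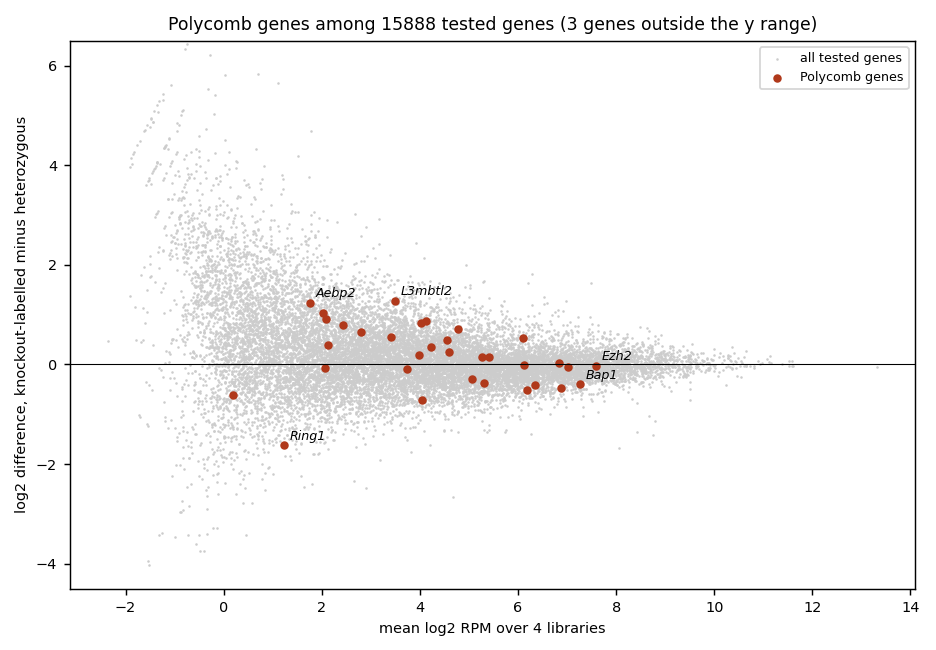
Mean log2 RPM over the 4 libraries (x) against the log2 difference between the groups (y) for 15888 tested genes in grey, with the 33 tested Polycomb genes in red; 3 genes lie outside the y range. The Polycomb genes run from -1.62 (Ring1) to 1.28 (L3mbtl2), within the spread of the grey points at their level.

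In the PRC2 core, Ezh2 was the more abundant of the 2 catalytic genes. Ezh2 (chr6:47530274-47595341, minus strand, mm10) was at 229.99 and 164 against 168 and 215 RPM. Both knockout-labelled values lay between the heterozygous ones, and the log2 difference was -0.03 (95% confidence interval -0.59 to 0.53, limma adjusted p = 0.987). Ezh1 (chr11:101191115-101226463, minus strand), the paralogue that is typical of non-dividing cells, was at 5.72 and 5.46 against 6.10 and 12.6 RPM. Only knockout-labelled 2 stood clearly above the rest, and the difference of 0.65 (SE 0.49, adjusted p = 0.763) was 0.13 without that library and 1.17 without knockout-labelled 1. Per kb of exon, Ezh2 exceeded Ezh1 44.8-fold and 33.4-fold in the heterozygous and 30.8-fold and 19.02-fold in the knockout-labelled libraries. The promoters of this unequal pair, 250 bases before the RefSeq start (GRCm38.p6, the assembly behind mm10) and read along each gene's minus strand, are shown with CCAAT boxes (CCAAT or its reverse complement ATTGG) in capitals.
Ezh2 (chr6:47595031-47595280): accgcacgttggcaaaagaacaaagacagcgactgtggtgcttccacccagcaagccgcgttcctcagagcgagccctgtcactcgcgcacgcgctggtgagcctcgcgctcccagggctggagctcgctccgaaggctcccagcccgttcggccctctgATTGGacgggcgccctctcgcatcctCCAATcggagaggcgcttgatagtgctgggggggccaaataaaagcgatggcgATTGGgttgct
Ezh1 (chr11:101226464-101226713): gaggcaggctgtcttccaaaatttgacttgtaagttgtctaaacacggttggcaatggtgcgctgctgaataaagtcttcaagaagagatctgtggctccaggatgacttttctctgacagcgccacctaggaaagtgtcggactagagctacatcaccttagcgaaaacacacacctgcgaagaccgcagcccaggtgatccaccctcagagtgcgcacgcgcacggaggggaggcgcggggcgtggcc
The Ezh2 window holds 3 CCAAT boxes and 23 CpG dinucleotides, and the Ezh1 window 0 and 14. At least 1 CCAAT box is present in 37.4% of all 32851 RefSeq promoter windows of 300 bases, so its presence is common.

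The scaffold subunits of PRC2 were less abundant than Ezh2. Eed, whose product reads methylated H3K27, was at 50.7 and 27.1 against 29.4 and 31.5 RPM, with heterozygous 1 alone above the other 3 libraries. Suz12, needed for the stability of the complex, was at 13.3 and 5.85 against 8.98 and 18.6 RPM, so its libraries spread more within each group than between the groups (log2 difference 0.55, SE 0.51, adjusted p = 0.820). Per kb, Ezh2 exceeded Eed 2.60-fold to 3.91-fold and Suz12 8.55-fold to 20.7-fold over the 4 libraries, so Suz12 was the scarcest of these 3 transcripts in every library. Rbbp4 and Rbbp7 encode histone-binding WD40 proteins that PRC2 shares with other chromatin complexes. Rbbp4 was at 64.3 and 50.4 against 82.7 and 81.8 RPM, and Rbbp7 at 15.8 and 9.28 against 24.1 and 19.4 RPM. Both were higher in both knockout-labelled libraries, by 0.53 (SE 0.27, adjusted p = 0.628) and 0.84 (SE 0.39, adjusted p = 0.616) on the log2 scale, and neither passed. The Rbbp7 difference was 0.46 without heterozygous 2.

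Among PRC2 accessory genes, those of both known PRC2 subtypes were present. Jarid2, a nucleosome-binding partner of PRC2, was at 142 and 135 against 89.2 and 113 RPM. Its groups did not overlap, and heterozygous cells held 1.37-fold more (log2 difference -0.46, SE 0.25, adjusted p = 0.641, and -0.29 without knockout-labelled 1). Aebp2, the zinc-finger protein that joins the same PRC2 subtype as JARID2, was at 3.29 and 1.48 against 5.62 and 4.79 RPM, the opposite direction (log2 difference 1.24, SE 0.62, adjusted p = 0.628, and 0.66 without heterozygous 2). The ratio of Jarid2 to Aebp2 per kb was thus 43.9 and 92.8 in heterozygous against 16.1 and 24.0 in knockout-labelled libraries. As Jarid2 was lower and Aebp2 higher in both knockout-labelled libraries, the separation of this ratio follows from the single values. Aebp2 rests on 19 and 50 against 119 and 54 reads. The Polycomb-like genes of the other subtype, Mtf2 and Phf1, overlapped between the groups: Mtf2 was at 57.7 and 34.9 against 27.5 and 44.2 RPM, and Phf1 at 43.1 and 37.8 against 51.8 and 38.7 RPM. The third Polycomb-like gene, Phf19, had 0 reads in 3 libraries and 1 read in knockout-labelled 2, so no difference was detectable at this depth. Mtf2 shares 6.93% of its exon bases with the opposite-strand gene Tmed5, and the protocol keeps no strand.

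The 2 catalytic genes of PRC1 lay on opposite sides, without passing the test. Rnf2 (chr1:151469406-151500823, minus strand), which encodes the more active ubiquitin ligase in most cell types, was at 17.3 and 26.9 against 41.9 and 29.5 RPM (log2 difference 0.70, SE 0.35, adjusted p = 0.628). It was 0.39 without heterozygous 1 and 0.45 without knockout-labelled 1. Ring1 (chr17:34020792-34024680, minus strand), its paralogue, was at 4.33 and 3.90 against 0.803 and 2.22 RPM, from 25, 132, 17 and 25 reads. That is a 2.72-fold lower mean (log2 difference -1.62, SE 0.73, 95% confidence interval -3.24 to 0.00, adjusted p = 0.616), and it was -0.89 without knockout-labelled 1. Neither gene passed, and their groups did not overlap. Within each library, where scaling between libraries plays no part, Rnf2 exceeded Ring1 per kb 3.14-fold and 5.42-fold in heterozygous and 41.0-fold and 10.4-fold in knockout-labelled libraries. Ring1 made up 24.1% and 15.6% of the summed level of the pair in heterozygous and 2.38% and 8.74% in knockout-labelled libraries. With Rnf2 higher and Ring1 lower in both knockout-labelled libraries, the separation of these ratios and shares follows from the single values. The promoters of this pair (250 bases before the RefSeq start, minus strand) are shown with the short form of the cyclic AMP response element (TGACG or CGTCA), the element through which CREM acts in spermatids, in capitals.
Ring1 (chr17:34024681-34024930): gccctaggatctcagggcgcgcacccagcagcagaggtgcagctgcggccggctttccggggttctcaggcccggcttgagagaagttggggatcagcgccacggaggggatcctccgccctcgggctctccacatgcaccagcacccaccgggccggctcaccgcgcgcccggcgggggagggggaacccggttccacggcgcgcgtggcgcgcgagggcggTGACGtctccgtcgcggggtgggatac
Rnf2 (chr1:151500992-151501241): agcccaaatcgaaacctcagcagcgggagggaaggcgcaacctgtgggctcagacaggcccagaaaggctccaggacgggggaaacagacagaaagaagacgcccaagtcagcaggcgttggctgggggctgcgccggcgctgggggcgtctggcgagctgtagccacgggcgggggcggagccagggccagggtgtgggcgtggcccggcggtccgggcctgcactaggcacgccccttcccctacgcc
The Ring1 window has 1 such site, from 27 to 23 bases before the start, and the Rnf2 window has 0. In 300-base windows the short form was found in 17 of 44 promoters of the set (38.6%), in 28.3% of promoters of tested genes and in 20.8% of all promoters, and the full element TGACGTCA in 1 of 44 (2.27%), 2.88% and 1.79%.

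The PCGF proteins decide which kind of PRC1 forms around RING1 or RNF2. Bmi1, of canonical PRC1, was at 92.3 and 80.6 against 51.5 and 71.3 RPM, below both heterozygous libraries in both knockout-labelled ones (log2 difference -0.51, SE 0.28, adjusted p = 0.648, and -0.27 without knockout-labelled 1). Its paralogue Pcgf2 was scarce, at 2.08 and 0.945 against 0.378 and 2.22 RPM. Pcgf1, of the KDM2B-containing variant, was at 24.9 and 18.0 against 14.6 and 11.4 RPM, also without overlap (log2 difference -0.71, SE 0.36, adjusted p = 0.635). Pcgf6, of the variant that contains L3MBTL2, was at 54.9 and 24.2 against 32.7 and 49.9 RPM, the heterozygous pair spanning the others. Pcgf3 was at 4.33 and 1.89 against 5.10 and 6.66 RPM (log2 difference 1.03, SE 0.59, adjusted p = 0.668, 0.43 without heterozygous 2 and 1.62 without heterozygous 1), and Pcgf5, of the closely related complex, at 16.6 and 13.027 against 15.4 and 18.5 RPM. By share of the family's summed level per kb, Bmi1 held 42.9% to 54.1% in the 4 libraries, Pcgf1 18.5% to 29.4%, Pcgf6 12.8% to 26.4%, and Pcgf2, Pcgf3 and Pcgf5 at most 4.03% each. The shares depend on the length used: by coding length Pcgf1 held 8.63% to 15.5%, Pcgf6 15.3% to 27.6% and Pcgf5 10.4% to 15.4%.

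Among subunits of canonical PRC1, Cbx7 was by far the most abundant CBX gene of the set. Cbx7 was at 12.989 and 21.002 against 21.8 and 20.3 RPM and held 93.2% to 94.5% of the summed per-kb level of the 4 CBX genes of the set. Cbx2 was at 0.346 and 0.532 against 0.614 and 0.710 RPM, and Cbx6 at 0.693 and 0.177 against 0.803 and 0.177 RPM. Cbx8 had 10 reads in heterozygous 2, the deepest library, and 0 reads in the other 3, where 3 reads would be 0.520, 0.142 and 0.266 RPM for heterozygous 1 and knockout-labelled 1 and 2. Phc1 was at 102 and 125.16 against 115 and 114 RPM (log2 difference 0.02, 95% confidence interval -0.51 to 0.56), and held 95.6% to 97.1% of the PHC family per kb. Phc2 was at 5.02 and 3.69 against 4.16 and 3.99 RPM, and Phc3 at 3.12 and 3.07 against 6.38 and 5.32 RPM (log2 difference 0.91, SE 0.52, adjusted p = 0.665). Of the SAM-domain and MBT-domain partners, Scmh1 was at 87.8 and 101 against 73.1 and 67.8 RPM, without overlap (log2 difference -0.42, SE 0.25, adjusted p = 0.686). Scml2, a germline partner of PRC1 on the X chromosome, was at 26.2 and 18.4 against 32.2 and 21.3 RPM, with overlapping groups.

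In variant PRC1, L3mbtl2 had the smallest p of the whole set. L3mbtl2 (chr15:81663889-81688315, plus strand), an MBT-domain protein of the PCGF6 complex, was at 8.66 and 6.09 RPM (50 and 206 reads) against 21.4 and 14.5 RPM (453 and 163 reads). Both knockout-labelled values stood above both others, the means (7.37 ± 1.82 and 17.9 ± 4.91 RPM, SD, n = 2 each) differed 2.43-fold, and the log2 difference was 1.28 (SE 0.41, limma adjusted p = 0.538), which did not pass. The adjusted p ran from 0.0579 (without heterozygous 1) to 0.9996 (without knockout-labelled 2) over the alternatives. L3mbtl2 shares 1023 exon bases, 17.2% of its merged exons, with Chadl on the opposite strand, which was at 7.27 and 8.60 against 16.0 and 10.8 RPM. Reads of the 2 genes cannot be told apart there. Pcgf6, which encodes the PCGF protein of the same complex, overlapped between the groups, as given above. Kdm2b, the CpG-binding subunit that brings the PCGF1 complex to CpG islands, had the smallest difference of the 33, at 69.4 and 69.2 against 67.2 and 70.8 RPM (log2 difference -0.01, 95% confidence interval -0.57 to 0.56). Rybp was at 18.7 and 10.2 against 10.9 and 15.4 RPM and Yaf2 at 6.23 and 2.33 against 4.02 and 6.30 RPM. Both genes overlapped between the groups, although the share of Yaf2 in the summed per-kb level of the pair did not: it was 45.8% and 36.8% in heterozygous and 48.2% and 50.8% in knockout-labelled libraries.

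Of the demethylases, Kdm6b, the inducible enzyme, was at 13.5 and 12.3 against 33.9 and 16.2 RPM. Knockout-labelled 1 stood apart from the other 3, and the log2 difference of 0.86 (SE 0.41, adjusted p = 0.626) was 0.33 without it and 1.40 without knockout-labelled 2. Knockout-labelled 1 also held the largest summed level of macrophage markers (381.5 RPM), and the part of those cells in the Kdm6b value was not tested. The opposite-strand gene 1700064E03Rik, which overlaps 7.08% of the exon bases of Kdm6b, was at 4.16 and 3.52 against 10.4 and 5.86 RPM. Kdm6a, the X-linked enzyme, was at 5.20 and 3.22 against 4.96 and 10.03 RPM, with knockout-labelled 2 highest. Its Y-linked paralogue Uty, not in the set of 37, was at 17.1 and 8.33 against 7.56 and 12.5 RPM and held 40.6% and 28.4% of the summed per-kb level of the 3 KDM6 genes in heterozygous and 12.4% and 26.6% in knockout-labelled libraries.

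Of the H2A deubiquitinase complex, Bap1 and Asxl1 were among the most abundant members per kb of merged exon, and Asxl2 lay below the median per-kb level of tested genes. Bap1 was at 185 and 169.5 against 138 and 131 RPM. The groups did not overlap, each pair lay close together, and the heterozygous mean was 1.32-fold higher (log2 difference -0.40, SE 0.23, 95% confidence interval -0.90 to 0.10, adjusted p = 0.664). Asxl1, which activates BAP1, was at 142 and 124 against 135 and 121 RPM (log2 difference -0.05, 95% confidence interval -0.57 to 0.47). The within-library ratio of Bap1 to Asxl1 per kb was 2.08 and 2.18 in heterozygous and 1.62 and 1.72 in knockout-labelled libraries. No background was computed for such ratios. Asxl2 was at 29.3 and 13.4 against 32.9 and 23.7 RPM, and Asxl1 held 87.4% to 93.2% of the summed per-kb level of the 3 ASXL genes.

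**Figure D4:**
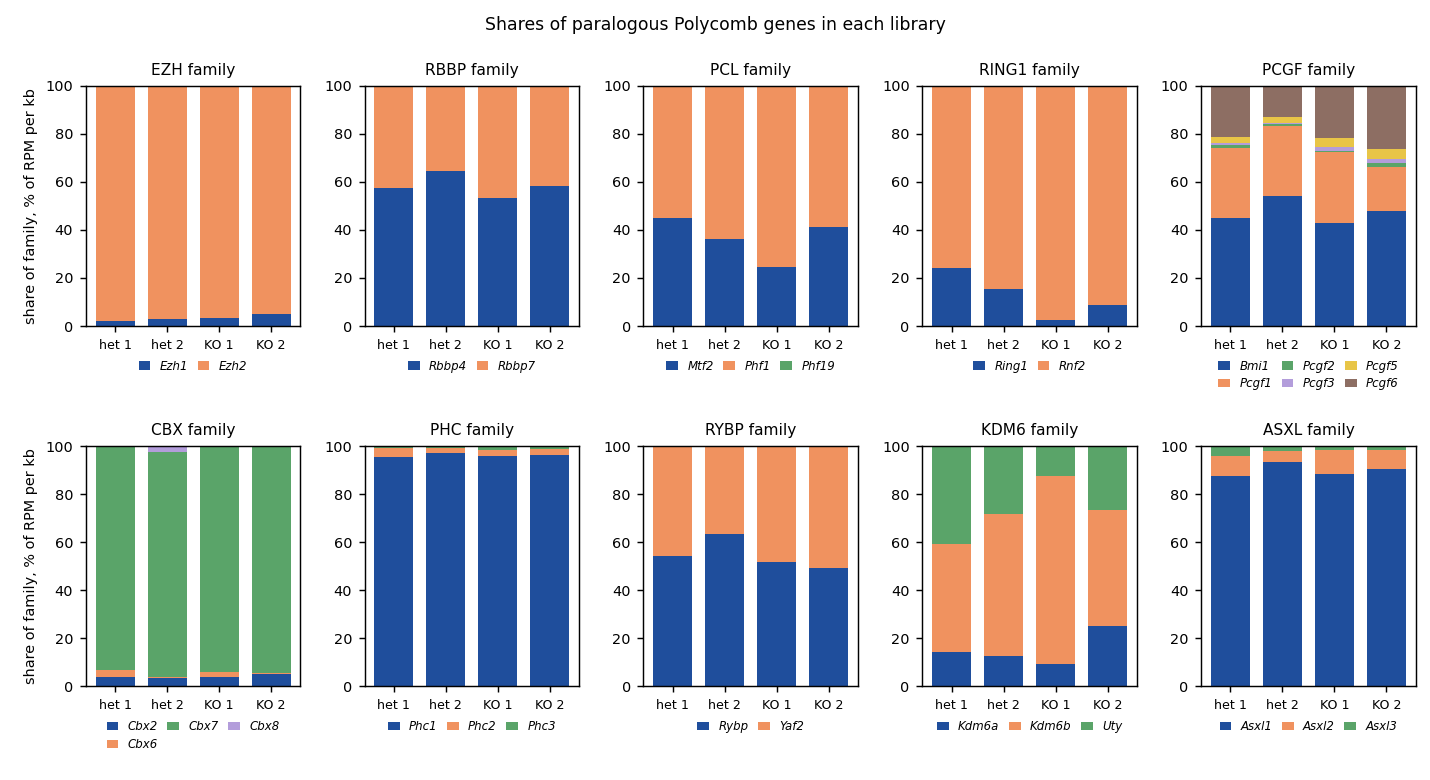
Share of each paralogue in the summed RPM per kb of its family, in percent, for 10 families in the 4 libraries (het, heterozygous; KO, knockout-labelled). Ring1 takes 24.1% and 15.6% in heterozygous and 2.38% and 8.74% in knockout-labelled libraries, while Ezh2, Cbx7, Phc1 and Asxl1 hold most of their families in every library.

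Shares within a library do not depend on the scaling between libraries. Of 30 paralogues in 10 families, 9 had a higher and 5 a lower share in both knockout-labelled libraries on exon length. The counts were 7 and 7 on coding length, where Pcgf6 and Cbx7 overlapped and Bmi1 and Pcgf1 lay lower, and 8 and 8 with no length correction. In families of 2 genes the shares mirror each other, so they are not independent, and no background was computed for shares. For levels of single genes, 38.5% of all tested genes had groups that did not overlap. The Ring1 and Rnf2 shares differed by 14.3 percentage points between the groups on exon length, by 10.2 on coding length and by 11.9 with no length correction. In a family of 2 genes the length used cannot change whether the shares overlap. The shares had to lie apart here, as Rnf2 alone lay higher and Ring1 alone lower in both knockout-labelled libraries. Ezh1 held 2.18% and 2.91% against 3.15% and 4.99% of the EZH pair.

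The heterozygous libraries also differed from each other across the set. Of the 33 tested members, 29 were higher in heterozygous 1 than in heterozygous 2, with a median log2 difference of 0.44, where 55.6% of all tested genes were higher and their median was 0.099. Heterozygous 2, the deepest library, was the lowest of the 4 for 20 members, a count for which no share over all tested genes was computed. The same library also held the most transition protein and protamine RNA (3754 RPM). The part of that RNA in the lower values was not tested. Between the knockout-labelled libraries the members' median difference was 0.015. Summed over the 37 genes, the libraries held 1559 and 1324 against 1359 and 1414 RPM. The members' median difference between the groups was 0.35 without heterozygous 1 and -0.04 without heterozygous 2, so its direction rests on the latter.

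The 3 X-linked members, Rbbp7, Kdm6a and Scml2, had differences of 0.84, 0.79 and 0.26, all positive. Among the 599 tested X-linked genes, 423 were positive. The median of the 3 members was 0.79, beside 0.30 over those 599 genes and 0.08 over the 30 tested autosomal members. Kdm6a and Scml2 overlapped between the groups. None of the 3 passed.

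Genes that work with or against Polycomb were read in the same fit, from 3 lists of 63 symbols in all. Beside the counts below, 6.21% of all tested genes were higher and 1.87% lower at an unadjusted p under 0.05. Of 28 further Polycomb partners, 25 were tested and 0 passed in either direction. Their median difference was 0.003, and 2 were higher at an unadjusted p under 0.05 and 0 lower. The smallest p belonged to Csnk2a1, a catalytic subunit of casein kinase 2 (6.41 and 4.64 against 14.3 and 10.3 RPM, log2 difference 1.16, adjusted p = 0.585), then to Auts2, of a PCGF5-containing complex (25.1 and 15.2 against 34.2 and 35.2 RPM, 0.83, adjusted p = 0.596), and to the paralogue Csnk2a2 (225 and 148 against 131 and 128 RPM, -0.50, adjusted p = 0.639). These 2 paralogues of the kinase lay on opposite sides, where 38.5% of all tested genes had groups that did not overlap. Of a list of 15 that holds BAP1 partners, other H2A deubiquitinases and the KDM6 paralogue Uty, all were tested and 0 passed in either direction (median -0.21, 1 higher and 1 lower at an unadjusted p under 0.05). Usp22, the deubiquitinase of the SAGA complex, was at 1.56 and 1.54 against 4.35 and 10.8 RPM (adjusted p = 0.470), Kdm1b, an H3K4 demethylase, at 16.6 and 15.6 against 7.18 and 7.01 RPM (adjusted p = 0.540), and Mbd6, a BAP1 partner, at 11.95 and 10.8 against 6.66 and 5.50 RPM (adjusted p = 0.616). Of 20 genes that write or erase H3K4 methylation, 19 were tested and 0 passed in either direction (median 0.30, 1 higher and 0 lower at an unadjusted p under 0.05). Rbbp5, a core subunit of the H3K4 methyltransferases, was at 1.56 and 3.16 against 6.29 and 6.57 RPM (log2 difference 1.53, adjusted p = 0.585), Kmt2d at 11.1 and 7.21 against 17.8 and 14.1 RPM and Kmt2a at 3.81 and 2.25 against 7.47 and 5.06 RPM.

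The promoters of Polycomb genes were rich in CpG dinucleotides. RefSeq gave 44 windows for 32 of the 37 genes, Pcgf1, Cbx2, Kdm6b, Rybp and Yaf2 having none. Each window runs from 250 bases before to 50 bases after a start. The median number of CpG dinucleotides per window was 23.5, beside 18 for tested genes and 7 for all windows. The ratio of observed to expected CpG was over 0.6 in 35 of 44 windows (79.5%), in 60.3% of windows of tested genes and in 35.8% of all. The CCAAT box was found in 38.6% of the members' windows and 37.6% of those of tested genes. Further motifs were read on both strands in the same windows. The ETS site CCGGAAGT was in 1 of 44 (2.27%, beside 6.75% of tested-gene and 3.89% of all windows) and the NRF1 site in 1 (2.27%, beside 1.82% and 0.971%). The E2F site GGCGGGAA was in 3 (6.82%, beside 3.51% and 2.19%) and the X-box core GTTGCCA in 3 (6.82%, beside 4.63% and 4.38%).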

How the data were processed

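For 25965 genes the table deposited by the authors gives log2 RPM, that is, reads scaled to the library total with no adjustment for gene length, per the labels; the submitters' processing notes name mm10, HISAT2 2.1.0, Trim Galore 0.6.6 and FastQC 0.11.8. The sources used here do not give the counting tool. Per the labels' protocols, sorted cells went through Smart-seq2 with 15 cycles of PCR and Nextera XT, which keeps neither strand nor molecular identifiers. If each library's smallest value stands for 0.9 of a read, 99.7% to 100.0% of values above it came out whole within 0.01 read, and intervals and the floor of 3 reads cover counting error only.

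The 15888 genes that reached 1 RPM in 2 or more libraries entered a limma fit (version 3.58.1, R 4.3.3) of the deposited log2 values, with a mean-variance trend, two-sided, Benjamini-Hochberg adjusted over all of them. Folds are ratios of mean RPM. Exon and coding lengths came from GENCODE M21, and promoters from RefSeq (GRCm38.p6). Older symbols were matched through RefSeq synonyms at an overlapping position. The fit was tested on simulated reads at the depths of the 4 libraries, with a spread between replicates that was set beforehand. At the same threshold it recovered 39 of 214 genes changed by 1 log2 unit (18.2%) and 188 of 196 changed by 2 (95.9%). The simulated spread was not estimated from these libraries, so these shares do not tell which changes could be detected here. In the real fit 0 genes passed, with log2 differences of up to 8.25. Per-library values are given for members at an unadjusted p under 0.05, the extremes of each role and families whose shares do not overlap, and here for nearly all others too; from each further list the 3 genes with the smallest p are named. The members and lists were chosen with earlier results of these data known, and 1 further gene of these lists is not reported here. Python 3.11.15, pandas 2.3.3, numpy 2.4.6 and matplotlib 3.10.9 were used.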

Additional observations from a re-analysis of the deposited data

How the results depend on the processing

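Under the 13 alternatives no member passed, and 19 of the 33 kept the sign of their difference in every one they entered. With 0 genes called in all as deposited, log2(RPM + 1) called 1, no filter 180 and the replicate block 66, and leaving out 1 library called 0 to 558 (442 without heterozygous 1, 558 without heterozygous 2, 5 without knockout-labelled 2), a fit in which the lone library is assumed to vary like the other group. Members at an unadjusted p under 0.05 numbered 1 as deposited, 3 with median-ratio scaling and with quantile normalization (1 higher and 2 lower each), 3 without a variance trend (2 higher, 1 lower), 2 with log2(RPM + 1) (1 and 1), 5 without a filter (4 and 1), 7 with voom and 0 to 9 with 1 library left out (9 without heterozygous 1, 5, of which 3 lower, without heterozygous 2, 0 without knockout-labelled 1 and 3 without knockout-labelled 2). The cause was not tested. All tested genes at an unadjusted p under 0.05 numbered 1283 as deposited, 1384 without a variance trend and 1418 with log2(RPM + 1). Without a filter they numbered 2086 of 25965. The counts with 1 library left out rest on a lone library in a group, so nothing about the Polycomb genes is concluded from them. The share of higher genes among all those at an unadjusted p under 0.05 was 76.9% as deposited, 65.6% with median-ratio scaling and 55.9% with quantile normalization.

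The sign changed for Phc1 with median-ratio scaling (-0.039) and voom (-0.018), for Kdm2b with quantile normalization (0.043), and with voom for Ezh2 (0.017), Phc2 (0.060) and Rybp (0.071). With 1 library left out, differences ran from -0.27 to 0.22 for Ezh2, -0.74 to 0.17 for Eed, -0.044 to 1.15 for Suz12, -0.061 to 0.36 for Phf1, -1.89 to 0.66 for Pcgf2, -0.44 to 0.74 for Pcgf6, -0.13 to 0.17 for Phc1, -0.30 to 0.14 for Phc2, -0.042 to 0.56 for Scml2, -0.046 to 0.031 for Kdm2b, -0.53 to 0.35 for Rybp, -0.31 to 1.11 for Yaf2, -0.15 to 0.046 for Asxl1 and -0.067 to 1.06 for Asxl2. The labels do not say whether the replicate numbers pair samples across the groups. The deviations of replicate 1 from 2 in the 2 groups correlated at -0.076 across genes, a value that cannot settle this. The paired fit with a replicate block left 1 member at an unadjusted p under 0.05, beside 1176 of all tested genes. From exon to coding length, the difference in share between the groups (knockout-labelled minus heterozygous) went from 1.11 to 3.10 percentage points for Pcgf3, from 1.31 to 3.87 for Pcgf5 and from 0.679 to 2.16 for Phc3.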
